A study of Mus musculus with 6 samples.

Results

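The genes described here are 119 autosomal protein-coding mouse genes of the splicing machinery and of related RNA-binding families, out of 20665 autosomal protein-coding genes in the RefSeq annotation of GRCm38. They were taken by symbol, under a rule that uses no measured value but was set with earlier results of these data known. It takes names that begin with Sf3a, Sf3b, U2af, Snrp, Prpf, Srsf or Hnrnp, or with Ddx or Dhx followed by a digit. Ddx3x, Hnrnph2 and Ddx3y meet the rule but lie on the X and Y chromosomes and were left out. ATAC-seq, which reads open chromatin from the cuts that Tn5 transposase makes in it, was run on pancreatic islets of mice aged 16 weeks. There were 3 groups of 2 libraries. Islets of wildtype mice with Ad-GFP, an adenovirus carrying green fluorescent protein, are named control-GFP. Islets of βRicKO mice, which lack Rictor in beta cells, are named knockout-GFP where they received Ad-GFP and knockout-Acsl4 where they received Ad-Acsl4, an adenovirus carrying the acyl-CoA synthetase Acsl4. Every group, the controls included, was kept with virus for 48 h outside the body, and about 50 islets were lysed per sample. Which Cre line made the deletion is not named in the labels, and islets also hold cells other than beta cells. C1 and C2 below stand for control-GFP libraries 1 and 2, K1 and K2 for those of knockout-GFP, and A1 and A2 for those of knockout-Acsl4, all as labelled. Whether libraries within a group stem from different mice is not stated, so p-values measure only the spread between these libraries, which may be technical.

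Splicing removes introns from pre-mRNA in a large particle, the spliceosome, built from small nuclear RNAs and proteins. The U1 particle recognises the start of an intron, U2AF and the U2 particle with its SF3A and SF3B complexes recognise the branch point and the 3′ splice site, and the PRPF proteins bring in the U4/U6.U5 particle and activate it. SR proteins (Srsf) usually promote the use of nearby exons, hnRNP proteins often oppose it, and ATP-driven helicases of the DEAD-box (Ddx) and DEAH-box (Dhx) families remodel the particle at each step. Many Ddx and Dhx proteins act elsewhere, in ribosome assembly, translation, RNA decay or the sensing of viral RNA, so the symbols cover more than splicing. Most of these genes are expressed in nearly every cell type, and such starts are usually open chromatin rich in CpG dinucleotides.

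The 6 peak lists differed widely in length and in how many genes they marked, also within groups. A gene was called marked in a library when a peak overlapped the 1000 bp on either side of its first or last annotated base, here a gene end. The lists held 525 to 5874 peaks. The libraries labelled C1, K1 and K2 marked 1786 to 3751 genes, whereas those labelled C2, A1 and A2 marked 223 to 438, although the list of A2 was the longest. Rictor had no peak in any list. Acsl4 had 7 and 6 peaks in the libraries labelled C1 and K1 and none in either labelled knockout-Acsl4, the group given Ad-Acsl4. The lists thus do not bear the labels out, and every direction below holds for the labels as deposited. Of 15 beta cell markers, Mafa and Nkx6-1 were marked in the libraries labelled C1 and K2, and the others, Ins1, Ins2 and Pdx1 among them, in none. Marked genes numbered 0 of 10 for other endocrine cells, 1 of 12 for acinar and ductal cells (in that labelled K2), 0 of 16 for endothelial, stromal and immune cells and 0 of 10 genes silent in islets.

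Of the 119 genes, 63 (52.9%) were marked in at least 1 library, against 25.5% of all autosomal protein-coding genes. The count was 38 (31.9%, exact Clopper-Pearson 95% interval 23.7 to 41.1) in the library labelled C1, where 17.3% of all genes were marked. It was 30 (25.2%, 17.7 to 34.0) in that labelled K1, against 8.64% of all genes, and 55 (46.2%, 37.0 to 55.6) in that labelled K2, against 18.2%. In these 3 libraries the share among the 119 genes was 1.85, 2.92 and 2.55 times that of all genes. The other libraries marked next to none: 3 genes (2.52%, 0.523 to 7.19) in that labelled C2, against 2.12% of all genes, 1 (0.840%, 0.0213 to 4.59) in that labelled A1, against 1.08%, and 2 (1.68%, 0.204 to 5.94) in that labelled A2, against 1.65%. Those 3 shares lie near the level of all genes and say nothing about the splicing genes. Intervals cover counting error only, and each gene is 1 observation in a library, not a replicate. A missing peak can stand for fewer cells with the region open, for less cutting per cell or for too few reads to call it. These cannot be told apart in bulk islets with the sequencing depth unknown.

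**Figure D1:**
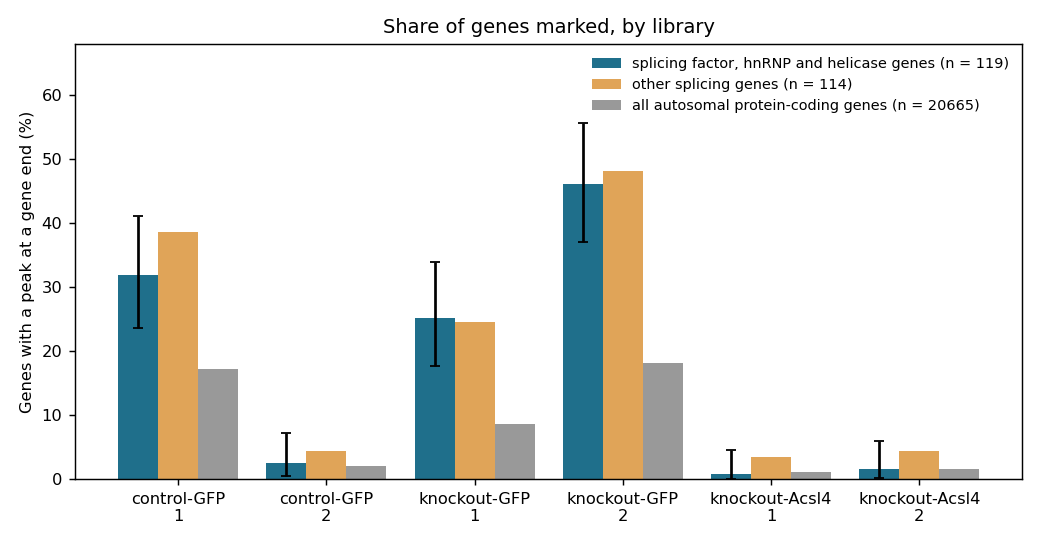
Share of genes with a peak at a gene end (y axis, percent) in each of the 6 libraries (x axis), for the 119 splicing factor, hnRNP and helicase genes (blue, error bars are exact 95% intervals), 114 other splicing genes (orange) and all autosomal protein-coding genes (grey). The blue bars reach 31.9%, 25.2% and 46.2% in 3 libraries and stay at or below 2.52% in the other 3.

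The genes whose proteins define the 3′ end of an intron form small families, with 3, 6 and 3 genes for Sf3a, Sf3b and U2af. In the library labelled K1, 33.3%, 16.7% and 0% of these were marked, against 8.64% of all genes. The shares were 33.3%, 16.7% and 66.7% in that labelled K2, against 18.2%. They were 0%, 0% and 33.3% in that labelled C1, against 17.3%. Sf3a and Sf3b encode the SF3A and SF3B complexes of the U2 particle. In any library, 2 of 3 and 1 of 6 were marked, against 25.5% of all genes. Sf3a2 had a peak scoring 5.49 in the library labelled K1 (score percentile 66.6) and none elsewhere. The score is the authors' value for a peak, read as −log10 of a q-value, and its percentile ranks the peak within its own list. Sf3a1 had a single weak peak, with a score of 2.33 (percentile 6.15), in that labelled K2. Sf3b2, which contacts the branch region, scored 3.94 and 7.73 in the libraries labelled K1 and K2 and had no peak in the other 4. Sf3a3, Sf3b1, the branch point binding subunit, Sf3b3, Sf3b4, Sf3b5 and Sf3b6 were marked nowhere. Of the U2AF genes, U2af2, the large subunit that binds the polypyrimidine tract, scored 11.0 in the library labelled C1 and 5.01 in that labelled K2. U2af1l4, a relative of the small subunit, had a score of 2.02 in that labelled K2 only, and U2af1 had no peak at its ends.

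The Snrp genes, which encode proteins of the small nuclear ribonucleoproteins, were marked in 3, 2 and 5 of 12 cases in libraries C1, K1 and K2. Snrpd2, a subunit of the Sm ring found in several spliceosomal particles, scored 12.8, 9.11 and 5.15 in these 3 libraries. Snrpa, a protein of the U1 particle, scored 11.4, 2.52 and 14.7. Snrpd3, another Sm subunit, scored 8.49 and 8.67 in the libraries labelled C1 and K2. Snrpe and Snrpg, also of the Sm ring, had peaks in that labelled K2 alone, scoring 7.51 and 3.14. Snrpa1, Snrpb, Snrpb2, Snrpc, Snrpd1, Snrpf and Snrpn were unmarked, so no library held the whole Sm ring. None of the 12 had a gene-end peak in the remaining 3 libraries.

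Prpf genes, most of them named after yeast pre-mRNA processing factors, were marked in 6, 2 and 6 of 13 cases in the same 3 libraries. The shares were 46.2%, 15.4% and 46.2%, against 17.3%, 8.64% and 18.2% of all genes. Prpf8, the large scaffold at the core of the U5 particle, scored only 3.30 in the library labelled C1 and 5.40 in that labelled K2. Prpf19, a ubiquitin ligase needed to activate the spliceosome, scored 4.19 and 5.82 in those labelled K1 and K2 and had no control peak. Prpf4 and Prpf40b each had peaks in the libraries labelled C1 and K2, at percentiles of 19.8 and 47.5 for Prpf4 and of 53.5 and 37.2 for Prpf40b. Prpf3, Prpf6, Prpf18, Prpf31, Prpf38a and Prpf39 were unmarked.

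SR protein genes were marked most often in the library labelled K2, with 7 of 11, against 4 in that labelled C1 and 3 in that labelled K1. In C1, K1 and K2 the shares were 36.4%, 27.3% and 63.6%, against 17.3%, 8.64% and 18.2% of all genes. Srsf7 was the member found in 3 libraries, with scores of 4.43, 6.59 and 5.82 in those labelled C1, K1 and K2. Srsf10 scored 6.55 and 9.85, and Srsf6 3.68 and 7.77, in those labelled C1 and K2. Srsf1, the founding SR protein, had the reverse gap, with 4.72 and 3.78 in those labelled C1 and K1 and no peak in that labelled K2. Srsf2, Srsf3, Srsf4 and Srsf9 were found in that labelled K2 only and Srsf5 in that labelled K1 only. Srsf11 and Srsf12 had no mark. No SR gene was marked in the other 3 libraries.

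Among families of at least 11 genes, hnRNP genes had the largest marked share in each of these 3 libraries. The counts were 12, 9 and 13 of 20 (60.0%, 45.0% and 65.0%), against 17.3%, 8.64% and 18.2% of all genes. Hnrnpc, whose protein packages nascent transcripts and binds uridine tracts, had the highest mean percentile of all 119 genes marked in 3 or more libraries, 91.3, with scores of 26.7, 7.08 and 27.3. Hnrnpa3 scored 9.33, 6.54 and 13.9, and Hnrnpd, the AU-rich element binding protein AUF1, 8.70, 5.16 and 10.3. Hnrnpul2 (10.8, 5.65 and 5.16), Hnrnpa0 (5.01, 5.83 and 5.68) and Hnrnph3 (5.96, 2.33 and 4.03) had the same pattern of libraries. Hnrnpul1 scored 12.2 and 15.0 in the libraries labelled C1 and K2. Hnrnpa1l2-ps2, Hnrnpab, Hnrnpf, Hnrnph1, Hnrnpl, Hnrnpm and Hnrnpu had no peak at an end.

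**Figure D2:**
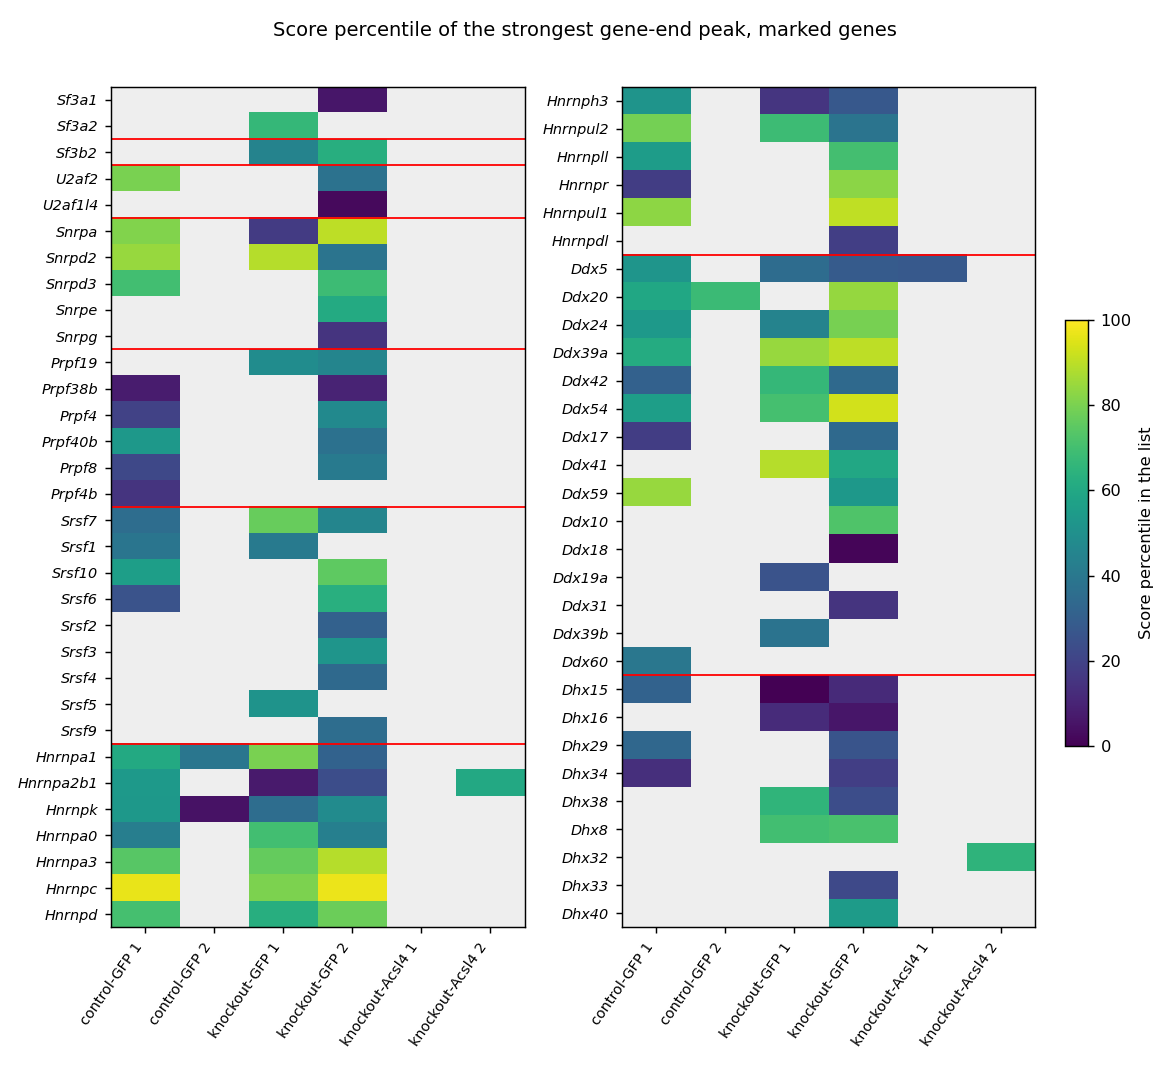
Score percentile within its own library's list (colour) of the strongest gene-end peak for the marked genes (rows, 1 left out, grouped by family with red lines) in each library (columns), with grey for no peak. Colour fills the columns of libraries C1, K1 and K2, and 6 cells lie in the other 3 columns.

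The helicases are grouped by a process in which each is known to act, in lists written with earlier results of these data known. A helicase can act in other processes too. Of 51 Ddx and Dhx genes, 12, 12 and 20 were marked in libraries C1, K1 and K2 (23.5%, 23.5% and 39.2%), against 26, 18 and 35 of the 68 other members (38.2%, 26.5% and 51.5%). Of 14 helicases listed under splicing or mRNA export, 5, 9 and 9 were marked. Their shares were 35.7%, 64.3% and 64.3%, against 17.3%, 8.64% and 18.2% of all genes. The corresponding counts were 2, 2 and 6 of 15 listed under ribosome assembly (13.3%, 13.3% and 40%). They were 3, 1 and 3 of 11 listed under translation, decay and quality control of RNA (27.3%, 9.09% and 27.3%). The last list holds Ddx19a, Ddx19b and Ddx20, each placed in a single role, so these counts describe the lists as drawn up. Ddx39a, an RNA export helicase, scored 7.18, 8.0 and 14.6. Ddx42, which works with the SF3B complex, scored 3.93, 5.49 and 4.84. Ddx54, of ribosome assembly, scored 6.52, 5.89 and 16.8, and Ddx24, of the same role, 6.28, 3.94 and 10.8. Dhx15, which takes spliceosomes apart, was weak in all 3, with 3.97, 1.34 and 3.0. Ddx59 scored 12.8 and 6.70 in the libraries labelled C1 and K2. None of Ddx4, Ddx25 and Ddx43, helicases of germ cells, was marked in any library. Among 3 sensors of viral RNA, Ddx60 alone was marked, with a score of 4.82 in that labelled C1.

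**Figure D3:**
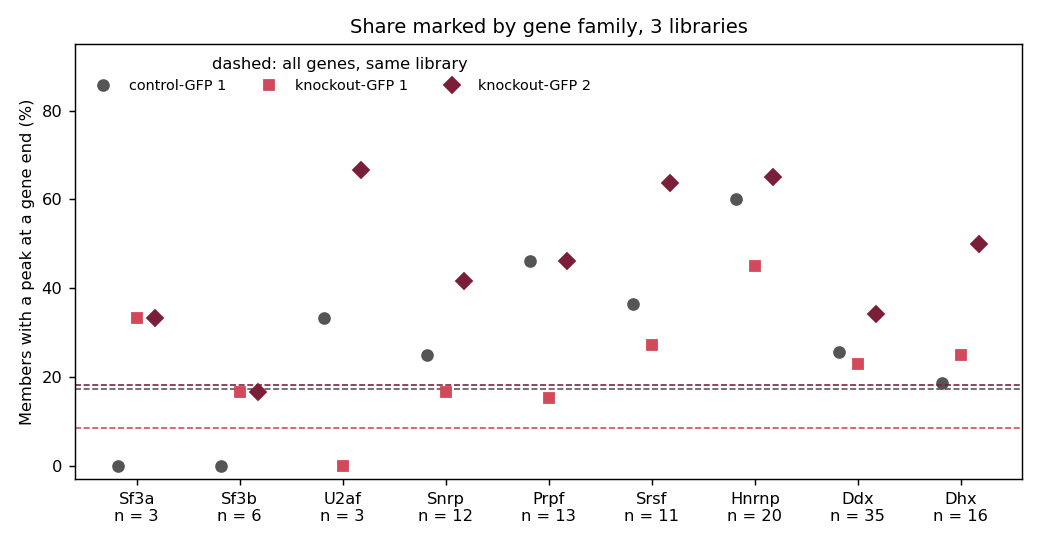
Share of each gene family marked (y axis, percent) in 3 libraries (circles, squares and diamonds), with dashed lines for the share of all autosomal protein-coding genes in the same library (17.3%, 8.64% and 18.2%). The Hnrnp points lie at 60.0%, 45.0% and 65.0%, and the Sf3b points at or below 16.7%.

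Of the 119 genes, 4 (3.36%) were marked in 4 libraries and none in more, against 1.71% of all genes in at least 4, and 20 (16.8%) in at least 3, against 6.89% of all genes. The count of 20 became 4 without the library labelled C1, 5 without that labelled K1 and 4 without that labelled K2. The 4 genes were Hnrnpa1 and Hnrnpa2b1, related hnRNP proteins that bind exonic silencers, Hnrnpk, which binds cytidine-rich RNA, and Ddx5, the helicase p68. Hnrnpa1 scored 7.08 and 2.30 in the libraries labelled C1 and C2, 7.03 and 4.56 in those labelled K1 and K2, and had no peak in either labelled knockout-Acsl4. Hnrnpk scored 6.23, 1.59, 3.43 and 6.04 in the same 4. Both were therefore marked in every GFP library and in no Acsl4 library, a combination of 1.68% of the 119 genes and 0.827% of all genes. Hnrnpa2b1 scored 6.32, 2.05 and 3.93 in those labelled C1, K1 and K2, and 2.02 in that labelled A2. Ddx5 scored 6.06, 3.39 and 4.24 in those 3 and 2.59 in that labelled A1.

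The 4 genes share an arrangement, in that another gene starts close by, so a peak cannot be given to either gene alone. Hnrnpa1 and Hnrnpa2b1 stand next to Cbx5 and Cbx3, which encode heterochromatin protein 1 alpha and gamma, and the human counterpart of the Hnrnpa2b1 and Cbx3 pair is known as a ubiquitous chromatin opening element. The peak of Hnrnpa1 in the library labelled C1 (103239963 to 103240384 on chromosome 15) was centred 230 bp from the Hnrnpa1 start and 270 bp from that of Cbx5. The Hnrnpk peak (58402115 to 58402703 on chromosome 13) was centred 934 bp from the gene's annotated start and 161 bp from the start of Rmi1, a genome stability factor. For Ddx5 the peak of that library (106788689 to 106788908 on chromosome 11) was centred 386 bp inside the outermost annotated base, 158 bp from the start of Cep95 and 108 bp from the RefSeq start of Ddx5 at 106788907. Over all 134 member peaks, 69 also lay in the window of another gene's end and 22 were centred nearer to it than to the member's outermost end, a measure that leaves starts inside the gene aside. Hnrnpc, Hnrnpdl, Hnrnpk, Sf3a2 and Snrpd3 were marked solely by such nearer peaks. A neighbouring gene end lay within 1000 bp for 46.2% of the 119 genes, against 25.6% of all genes. Without such a neighbour, 43.8% of the splicing and helicase genes were marked in any library, against 20.2% of all genes.

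RefSeq promoter windows of GRCm38.p6, from 250 bases before to 50 bases after an annotated start, were matched for 104 of the 119 genes. Windows of the 4 genes marked in 4 libraries are shown because no other member was marked in as many, and that of Hnrnpc because it had the highest mean percentile among members marked in 3. Ddx5 has 3 RefSeq starts. Its printed window belongs to the start at 106788907, nearest to the C1 peak and 1 of the K2 peaks, whereas the shares over 104 genes use the window of the start at 106789185, nearest to the K1 peak and the other K2 peak. Hnrnpl is shown for its start inside the gene and was chosen after its values were seen. Capitals mark matches on either strand to GGGCGG (the GC box), CCAAT (the NFY box), GGAAGT (an ETS site), GCATGCGC (an NRF1 core), AAGATGGCG (a YY1 core), TGACGTCA (a cyclic AMP response element) and CTCGCGAGA (the core of the ZBTB33 motif). Each sequence reads 5′ to 3′ on the gene's strand. The windows are chr15:103240147-103240446 on the plus strand for Hnrnpa1, chr6:51469845-51470144 on the minus strand for Hnrnpa2b1, chr13:58402068-58402367 on the minus strand for Hnrnpk, chr11:106788858-106789157 on the minus strand for Ddx5, chr14:52103972-52104271 on the minus strand for Hnrnpc and chr7:28810640-28810939 on the plus strand for Hnrnpl.
Hnrnpa1: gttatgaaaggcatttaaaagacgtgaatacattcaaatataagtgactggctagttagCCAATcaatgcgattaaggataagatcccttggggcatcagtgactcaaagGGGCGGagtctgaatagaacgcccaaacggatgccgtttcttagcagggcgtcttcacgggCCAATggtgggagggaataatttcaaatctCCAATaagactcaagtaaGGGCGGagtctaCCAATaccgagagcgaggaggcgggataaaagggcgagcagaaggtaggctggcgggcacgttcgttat
Hnrnpa2b1: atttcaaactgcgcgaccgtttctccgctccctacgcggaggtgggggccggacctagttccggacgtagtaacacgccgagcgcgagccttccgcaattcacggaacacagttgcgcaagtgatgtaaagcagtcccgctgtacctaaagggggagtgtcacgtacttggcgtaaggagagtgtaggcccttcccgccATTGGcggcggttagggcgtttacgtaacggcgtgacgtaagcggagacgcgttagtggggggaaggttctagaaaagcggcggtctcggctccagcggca
Hnrnpk: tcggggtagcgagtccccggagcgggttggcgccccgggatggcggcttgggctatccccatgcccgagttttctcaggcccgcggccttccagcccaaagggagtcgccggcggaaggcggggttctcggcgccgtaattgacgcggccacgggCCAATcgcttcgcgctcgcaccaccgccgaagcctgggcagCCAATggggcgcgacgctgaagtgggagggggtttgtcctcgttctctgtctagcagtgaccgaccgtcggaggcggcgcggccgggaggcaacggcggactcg
Ddx5: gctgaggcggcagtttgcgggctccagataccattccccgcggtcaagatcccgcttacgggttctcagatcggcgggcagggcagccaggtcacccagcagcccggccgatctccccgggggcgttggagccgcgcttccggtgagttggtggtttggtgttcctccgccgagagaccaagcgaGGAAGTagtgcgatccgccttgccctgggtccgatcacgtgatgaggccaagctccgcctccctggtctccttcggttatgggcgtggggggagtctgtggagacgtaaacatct
Hnrnpc: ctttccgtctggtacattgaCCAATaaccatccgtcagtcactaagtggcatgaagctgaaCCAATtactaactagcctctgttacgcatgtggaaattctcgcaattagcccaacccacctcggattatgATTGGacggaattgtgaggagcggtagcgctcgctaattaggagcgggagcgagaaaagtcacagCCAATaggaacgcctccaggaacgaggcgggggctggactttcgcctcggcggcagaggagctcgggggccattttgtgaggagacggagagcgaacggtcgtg
Hnrnpl: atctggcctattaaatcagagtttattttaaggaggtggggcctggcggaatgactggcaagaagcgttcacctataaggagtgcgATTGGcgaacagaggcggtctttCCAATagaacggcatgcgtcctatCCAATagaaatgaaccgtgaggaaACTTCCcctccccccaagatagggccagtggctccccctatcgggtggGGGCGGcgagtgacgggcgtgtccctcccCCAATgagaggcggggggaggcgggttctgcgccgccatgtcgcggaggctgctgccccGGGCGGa

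Matches to CCAAT recurred in 5 of these windows, with 4 in Hnrnpa1, 1 in Hnrnpa2b1, 2 in Hnrnpk, 4 in Hnrnpc and 4 in Hnrnpl, while the printed Ddx5 window held 1 match to GGAAGT and none to CCAAT. The window of the other Ddx5 start, not printed, held both CCAAT and GGAAGT. The GC content ran from 48.3% in Hnrnpa1 to 70.7% in Hnrnpk. The CpG ratio, observed over expected from the base content, ran from 0.792 in Hnrnpl to 1.28 in Hnrnpa2b1. Peaks covered 235, 235 and 255 of the 300 bases of the Hnrnpc window in libraries C1, K1 and K2. In Hnrnpa1 they covered 238, 116, 282 and 207 bases in the 2 control-GFP and 2 knockout-GFP libraries.

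Promoters of the 119 genes were rich in CpG whether marked or not. The median CpG ratio was 0.916 (quartiles 0.792 and 1.06) over the 104 matched genes, 0.928 in the 57 marked in any library and 0.902 in the 47 unmarked ones, beside 0.597 (0.229 and 0.837) over 16457 promoters of autosomal protein-coding genes. GC content had medians of 60.0% and 56.7%. GGGCGG was found in 64.4% of the 104 windows and 47.3% of all, CCAAT in 50.0% and 39.1%, GGAAGT in 48.1% and 25.3%, and CANNTG, the E-box, in 62.5% and 68.4%. The longer motifs were rare, at 6.73% and 3.66% for GCATGCGC, 2.88% and 1.92% for AAGATGGCG, 6.73% and 2.40% for TGACGTCA, and 1.92% and 0.997% for CTCGCGAGA. A match is a description of letters and not a bound site.

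The comparison with all genes was repeated among genes with CpG-rich promoters. Windows with a ratio of 0.75 or more, a limit set after the values were seen, made up 84.6% of the 104 windows and 35.2% of all. Among genes with such windows, 34.1% of the splicing and helicase genes and 32.6% of all genes were marked in the library labelled C1, a ratio of 1.04. The same shares were 28.4% and 18% (1.57) in that labelled K1 and 53.4% and 36.9% (1.45) in that labelled K2. Those of the other 3 libraries rest on 1 to 3 marked members each. Whether the ratios differ between groups was not tested.

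Peaks sat on the starts of the genes. The RefSeq promoter table gives a strand for 104 members, and in libraries C1, K1 and K2 all 33, 26 and 49 marked members with a strand had a peak at the start, against 97.3%, 97.3% and 97.1% of all marked genes with a strand. Their peak centres had medians of 24, -21 and 6 bp from the gene start, positive values lying inside the outermost annotated base. The middle 50% spanned -128 to 116, -150 to 70.2 and -77 to 82 bp. Measured instead from the nearest RefSeq start, 117 gene-end peaks had a median of -90 bp (quartiles -224 and -3), so most lay upstream of that start. Median peak widths of 259, 206 and 204 bp lay beside 254, 210 and 223 bp for all gene-end peaks. Median score percentiles were 53.7, 64.2 and 40.7, beside 54.3, 53.3 and 52.2, so the members' median was the higher of the pair in K1 and the lower in C1 and K2. Of the 42 members marked in at least 2 libraries, 38 had the same merged region in all of them, and Ddx5, Ddx17, Hnrnpa2b1 and Srsf7 did not.

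**Figure D4:**
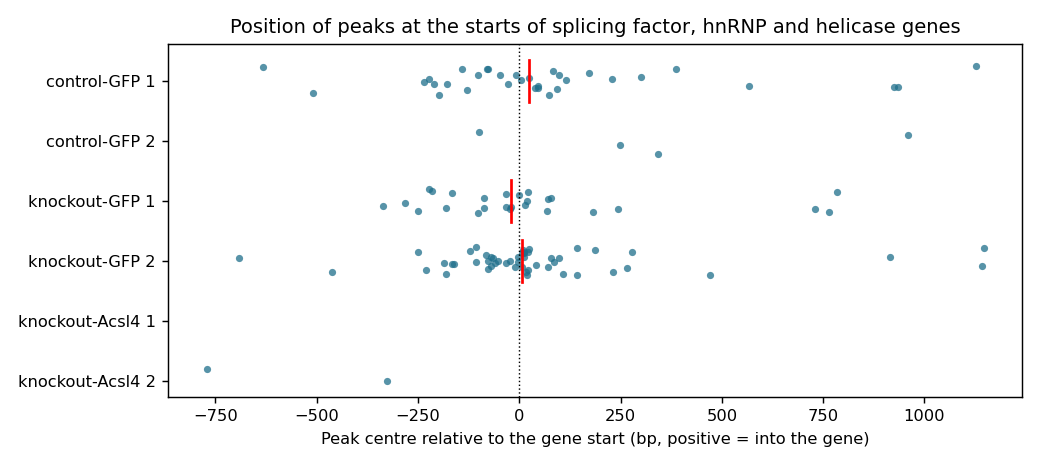
Distance of peak centres from the gene start (x axis, bp, positive into the gene) for peaks at the starts of members with a known strand, in each library (rows), with red lines at the medians of libraries with 5 or more peaks. The medians lie at 24, -21 and 6 bp, and the library labelled A1 has no point because its single mark was at the far end of Ddx5.

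Several hnRNP genes without a mark at their outermost ends were open at a start inside the gene. Hnrnpl, a regulator of exon inclusion through CA repeats, had a peak centred -114 to -290 bp from its RefSeq start, 28810890 on chromosome 7, in all 4 GFP libraries. The scores were 9.13, 7.87, 4.37 and 15.2 in those labelled C1, C2, K1 and K2 (percentiles 73.1, 93.6, 50.9 and 90.9), and both Acsl4 libraries had none. Hnrnph1, which binds guanine runs, had peaks centred -71 to -162 bp from a start at 50377678 on chromosome 11 in the same 4 libraries, scoring 3.58, 3.18, 7.25 and 7.55. Hnrnpf, its close relative, had one at the start 117906782 on chromosome 6 in the libraries labelled C1 and K1, scoring 2.64 and 5.52, but both peaks also lay at the end of another gene and cannot be given to Hnrnpf alone. Ddx50, a nucleolar helicase, had one just before the start 62651218 on chromosome 10 in those labelled C1, K1 and K2, scoring 7.05, 7.98 and 5.08. With RefSeq starts inside genes counted for all genes, a choice made after the data were seen, 67 members (56.3%) were marked in any library, against 27.4% of all genes, and 16 of 20 hnRNP genes.

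Setting knockout-GFP against control-GFP addresses, if the labels hold, what loss of Rictor in beta cells does to open chromatin. The marked share was 35.7% ± 14.9 in knockout-GFP and 17.2% ± 20.8 in control-GFP (SD, n = 2 each), a difference of 18.5 points with an exact two-sided permutation p = 0.667 (0.667 adjusted by Benjamini-Hochberg over 6 comparisons), so it was not larger than the spread between libraries. It was 33.2 and 3.78 points without the library labelled C1 or C2, and 29.0 and 7.98 points without that labelled K1 or K2. With the better 50% of each list by score it was 6.72 points, and with every list shortened to 525 peaks 4.62 points. Relative to all genes, the share was 2.73 ± 0.262 in knockout-GFP and 1.52 ± 0.466 in control-GFP (SD, n = 2 each). Both knockout-GFP values (2.92 and 2.55) lay above both control-GFP values (1.85 and 1.19). The exact permutation p = 0.33 (adjusted 0.400) is the smallest that 2 against 2 libraries allow. The value of 1.19, from the library labelled C2, rests on only 3 marked members. At 525 peaks a list the difference in this ratio was 2.05, against 1.21, but the control values then rested on 2 and 1 marked members. With the strongest 2206 peaks the libraries labelled C1 and K2 both had a ratio of 1.99, and that labelled K1 had 2.92. With the strongest 1000 peaks C1 and K2 had ratios of 1.54 and 2.14, and with the strongest 3000 1.84 and 2.42. K2 was the higher at every list length tried but 2206, so the size of the gap depended on how many peaks were kept.

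As labelled, 6 genes (5.04%) were marked in both libraries of knockout-GFP but in no control library, against 1.10% of all genes, and 0 the reverse, against 0.0968%. The 6 were Dhx8, Dhx16 and Dhx38, Ddx41, Sf3b2 and Prpf19. Dhx16, Dhx38 and Dhx8 encode the DEAH-box ATPases that drive activation, the second catalytic step and mRNA release, the counterparts of yeast Prp2, Prp16 and Prp22. Dhx8 scored 5.82 and 9.09 in the libraries labelled K1 and K2 (101732760 to 101732950 on chromosome 11 in the former), Dhx38 5.39 and 3.94, and Dhx16 2.20 and 2.33. Ddx41, a helicase of the catalytic spliceosome, scored 9.03 and 7.39, with percentiles of 88.8 and 60.0. The Dhx16 peaks were at percentiles of 12.3 and 6.15, near the low end of both lists. The Dhx38 peaks were centred 54 and 3 bp from its own end and 85 and 28 bp from the start of its neighbour Txnl4b. Of the 25 members marked in both knockout-GFP libraries, 24.0% were in neither control, against 15.7% of the 1443 genes so marked. The count of 6 became 23 without the library labelled C1, 20 without that labelled K1 and 10 without that labelled K2. It stayed at 6 without that labelled C2, which marked 3 of the 119 genes, so the absence from controls rests on C1. The reverse count became 2 without that labelled C2 and 1 without that labelled K2.

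The control library labelled C1 and that labelled K2 marked nearly equal shares of all genes and can be set side by side as 2 libraries, not as 2 conditions. They shared 35 members, 92.1% of the 38 in the former and 63.6% of the 55 in the latter. Over all genes, 2516 were shared, 70.5% and 67.1%. Members found only in the former were Ddx60, Prpf4b and Srsf1, whereas 20 were found only in the latter, beside 1054 and 1235 of all genes. The 20 included Sf3a1, Srsf2, Srsf3, Srsf4 and Srsf9, Snrpe and Snrpg, and the helicases Ddx10, Ddx18, Ddx31, Dhx33 and Dhx40, and their percentiles ran from 1.21 to 72.5 with a median of 32.6. With the strongest 2206 peaks of each list, the 3 libraries labelled C1, K1 and K2 marked 23, 30 and 24 members and 9.74%, 8.64% and 10.1% of all genes. With the strongest 1000, they marked 8, 16 and 11 members and 4.36%, 4.32% and 4.32%. With the strongest 525, the length of the shortest list, they marked 2, 7 and 7. With the strongest 3000, those labelled C1 and K2 marked 28 and 39. With the strongest 1628, those labelled C1 and K2 marked 11 and 18. K2 thus marked more members than C1 at each of these lengths, by a margin that depended on how many peaks were kept.

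**Figure D5:**
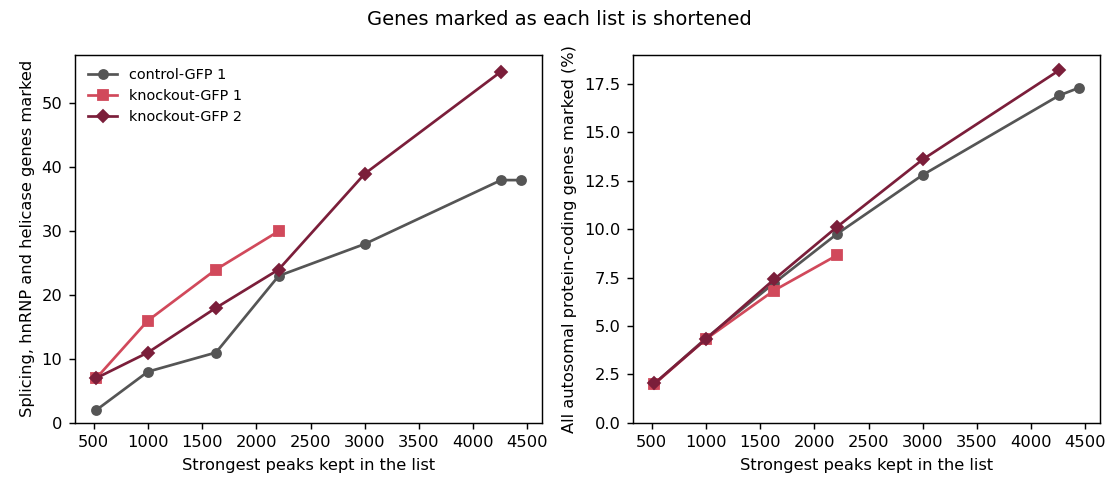
Members marked (left, count) and all autosomal protein-coding genes marked (right, percent) when only the strongest peaks of a list are kept (x axis, number of peaks), for 3 libraries. The right-hand lines nearly coincide up to 1628 peaks, and on the left the library labelled K1 lies highest at 1000, 1628 and 2206 peaks.

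If the labels hold, knockout-Acsl4 against knockout-GFP addresses what added Acsl4 does in islets without beta cell Rictor. The marked share was 1.26% ± 0.594 in knockout-Acsl4 and 35.7% ± 14.9 in knockout-GFP (SD, n = 2 each). Both Acsl4 libraries lay below both GFP libraries, with a difference of -34.5 points (-23.9 to -45.0 when any 1 library was left out) and an exact permutation p = 0.33 (adjusted 0.400), the smallest possible. The difference was -16.0 points with the better 50% of each list and -5.46 at 525 peaks a list. The share of all genes marked in the Acsl4 libraries was also low, at 1.08% and 1.65%. Relative to all genes the members' share was 0.899 ± 0.170, against 2.73 ± 0.262 (SD, n = 2 each, exact permutation p = 0.33, adjusted 0.400). The Acsl4 ratios, 0.779 and 1.02, rest on 1 and 2 marked members and so say nothing about the splicing genes. As labelled, 23 members (19.3%) were marked in both knockout-GFP libraries and neither knockout-Acsl4 library, against 6.12% of all genes, and 0 the reverse, against 0.00968%. These were 23 of the 25 marked in both knockout-GFP libraries (92.0%), beside 87.6% over all genes, and the exceptions were Ddx5 and Hnrnpa2b1. The count was 53 without the library labelled K1. By family the 23 held 8 hnRNP genes, 5 Ddx and 4 Dhx genes, 2 each of Snrp and Prpf, and 1 each of Srsf and Sf3b.

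The libraries labelled A1 and A2 held 3 marks in all, and none was shared. That of Ddx5 in the former (106779796 to 106779907 on chromosome 11, score 2.59) lay beyond the last base of the gene, 314 bp from the start of Polg2, the mitochondrial DNA polymerase subunit. That of Hnrnpa2b1 in the latter (51470621 to 51471015 on chromosome 6, score 2.02) was centred 770 bp before the Hnrnpa2b1 start and 664 bp from that of Cbx3, and overlapped no peak of the other libraries. Dhx32 was marked in the latter alone, by a peak centred 326 bp before its start (score 2.19), and is the member that makes the reverse count 1 when the library labelled A1 is left out. No member had an Acsl4 library peak in the region that marked it in a GFP library.

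For knockout-Acsl4 against control-GFP, the combined difference, the shares were 1.26% ± 0.594 and 17.2% ± 20.8 (SD, n = 2 each). The difference of -16.0 points had an exact permutation p = 0.33 (adjusted 0.400), and was -1.26 points without the library labelled C1 and -30.7 without that labelled C2. It was -9.24 with the better 50% of each list and -0.840 at 525 peaks a list. Relative to all genes the values were 0.899 ± 0.170 and 1.52 ± 0.466 (difference -0.620, exact permutation p = 0.33, adjusted 0.400), and the difference was -0.291 and -0.950 without the same 2 libraries. With a 3000 bp window it was -1.11, and with starts inside genes counted -1.06. With the 1000 bp window, the ratios of libraries A1, A2 and C2 rest on 1, 2 and 3 marked members. As labelled, 3 members (2.52%) were marked in both controls and neither Acsl4 library, against 1.40% of all genes, and 0 the reverse, against 0.00484%. They were Hnrnpa1, Hnrnpk and Ddx20, a partner of the SMN complex that assembles Sm rings. Ddx20 scored 6.85 and 3.28 in the libraries labelled C1 and C2, 12.0 in that labelled K2, and had no peak in the other 3. The count of 3 became 36 without the library labelled C2. With starts inside genes counted, a choice made after the data were seen, the count was 5, with Hnrnpl and Hnrnph1. That count was not made over all genes. With gene ends alone, 83.0% of the 348 genes marked in both controls were in neither Acsl4 library, beside all 3 such members. This comparison and the other 2 share their libraries pairwise, so their counts are not independent.

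A list of 114 other splicing genes, which the symbol rule does not take, was set beside the members. It holds spliceosome components, kinases of SR proteins and other RNA-binding regulators, and all 114 matched an autosomal gene. In libraries C1, K1 and K2, 44, 28 and 55 were marked (38.6%, 24.6% and 48.2%), beside 31.9%, 25.2% and 46.2% of the members. In C2, A1 and A2 the shares were 4.39%, 3.51% and 4.39%, beside 2.52%, 0.840% and 1.68% of the members and 2.12%, 1.08% and 1.65% of all genes. Snrnp70, the U1-70K protein, was marked in 5 libraries, all but that labelled A2, with a mean percentile of 72.9, more libraries than any of the 119 genes. Plrg1 (71.1) and Cwc25 (52.3), both parts of the activated spliceosome, were marked in 4. Of the 114, 3 were marked in both knockout-GFP libraries and neither control, 0 the reverse, and 19 in both knockout-GFP and neither knockout-Acsl4 library, beside 6, 0 and 23 of the 119. Differences between these lists were not tested.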

How the data were processed

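ATAC-seq was run on 6 libraries in 3 groups of 2. The authors deposited 1 peak list per library, without a header, giving position, name and a value. That deposited value was read as a −log10 q-value since each list's smallest value is just over 1.30 (−log10 of 0.05), an inference that no label states. Tools listed per the submitters' processing notes, whose roles are not stated, include BWA 0.7.10, MACS2 2.1.1, Trimmomatic, SAMtools and FastQC. Those notes name human builds, whereas the peaks fall on mouse GRCm38 gene starts, so GRCm38 coordinates were assumed and are given 1-based. Sequencing depth is unknown, which limits the precision, and list length stands in its place.

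A gene was marked by a peak overlapping the 1000 bp around either gene end by at least 1 bp, with genes from RefSeq GRCm38.p6. Scores were ranked within each list only. Peaks of the 6 lists that overlapped were merged into regions. Shares were compared between groups over libraries by exact two-sided permutation, and counts of genes were set beside all autosomal protein-coding genes without a test. The overlap code was tested on simulated peaks. Alternatives were a 3000 bp window, the better 50% of each list, equal list lengths, at least 50% of the peak in the window, leaving out regions found in all libraries, leaving out each library, and a replicate block. Those added after seeing the data were RefSeq starts inside genes and other list lengths. The members, gene lists and tests were chosen with earlier results of these data known. Genes were named if marked in at least 4 libraries, if they had a pattern between groups (up to 20 by percentile), as up to 4 examples per family, or as unmarked members of the smaller families. Others, among them members found in 1 library and starts inside genes, were named after their values were seen. The values of 1 member are not reported here. Python 3.11.15, NumPy 2.4.6, pandas 2.3.3 and SciPy 1.17.1 were used.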

Additional observations from a re-analysis of the deposited data

How the results depend on the processing

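No difference in marked share or in the ratio to all genes changed direction under any alternative, and no p went below 0.33, the smallest that the design allows. Depth is unknown and the lists are short, so counts depended on list length. With the better 50% of each list, 39 members were marked in at least 1 library and 7 in at least 3. The counts were then 2 for both knockout-GFP and neither control, 8 for both knockout-GFP and neither knockout-Acsl4, and 1 for both control-GFP and neither knockout-Acsl4. With every list shortened to its strongest 525 peaks, the 5 counts in that order were 13, 1, 2, 3 and 0. The last was 5 with a 3000 bp window and 5 with starts inside genes added. Under those 2 settings the count of the library labelled C2 was also 5, against 3, and no other count moved by over 1.5 times. None did with at least 50% of the peak in the window or without regions found in all libraries. Counts in this paragraph were made for the members only, so no share of all genes can be set beside them.

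Leaving out 1 library at a time gave 49 to 63 members marked in at least 1 library and 4 to 20 in at least 3. It gave 6 to 23 for both knockout-GFP and neither control, 24 to 53 for both knockout-GFP and neither knockout-Acsl4, and 3 to 36 for both control-GFP and neither knockout-Acsl4. The reverse counts ran from 0 to 2 for control-GFP over knockout-GFP and from 0 to 1 for knockout-Acsl4 over either group. A lone library left in a group gives a value whose spread is not known. With a library left out, here and above, counts were made for the members only and have no all-gene share beside them.

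The replicate numbers in the titles do not state a shared animal or day. The title of the library labelled A2 also holds the code KA3, so its pairing as number 2 is uncertain. With the replicate block, differences in marked share were 18.5 (sign-flip p = 1, exact), -34.5 (exact p = 0.5) and -16.0 points (exact p = 0.5), and differences in the ratio 1.21, -1.83 and -0.620 (exact p = 0.5 each), with 0.5 the smallest possible. Deviations of same-numbered libraries from their group means correlated across genes at -0.282 for knockout-GFP and control-GFP, -0.000191 for knockout-Acsl4 and knockout-GFP and 0.0605 for knockout-Acsl4 and control-GFP.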

Other observations

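Peaks inside the genes, overlapping the window of neither end, were also found in other places than those given above. A2 had such peaks in Sf3b1, Ddx60 and Snrpn. In Snrpn, an imprinted gene expressed in neurons, they lay at 60116950 to 60117206 and 60340949 to 60341286 on chromosome 7, with scores of 1.54 and 3.46. In Sf3b1 the peak lay at 55004376 to 55004571 on chromosome 1, with a score of 1.49, and in Ddx60 at 61975961 to 61976323 on chromosome 8, with a score of 1.93. Dhx35 had one in C2 (score 1.80), Srsf1 one in K1 (2.20) and Ddx6 one in K2 (4.89). None of these regions was found in a further library.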
